A study of Homo sapiens with 6 samples.

Results

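Within the genome-wide map of estrogen receptor α (ERα) binding in MDA-MB-453 cells, dense clusters of constant regions were described. A constant region is a stretch in which peaks from all 6 deposited peak lists overlapped by at least 1 bp, and on chromosomes 1 to 22 there were 65801 of them among 169433 merged regions. Constant regions less than 12.5 kb apart were stitched together, and a stitched group of 5 or more regions was called a cluster. This gave 1895 clusters with 12659 member regions, which is 19.2% of the constant regions and 7.47% of all merged regions. The members were chosen by measured values, namely presence in the 6 peak lists and the gaps between regions, so their number, spacing and constancy are descriptions and were not tested.

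MDA-MB-453 is an established breast cancer cell line of the apocrine, androgen receptor-positive kind that is commonly used as a line lacking functional ERα. The labels describe cells in which doxycycline switches on ERα, either wild type or with the substitution Y537S or K303R, and all 6 groups received 2 µg/mL doxycycline for 2 days. The groups were wild type without E2, wild type with E2, Y537S without E2, Y537S with E2, K303R without E2 and K303R with E2, where E2 is estradiol at 1 nM. The medium held fetal bovine serum, and the labels do not say that it was stripped of hormones. ERα was precipitated with the antibody D8H8, and each group has 1 library, so no comparison has a replicate check. Names in the peak lists carry a date-like tag that wild type and K303R share and Y537S does not, so the Y537S receptor and that tag cannot be told apart.

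ERα is a nuclear receptor that binds DNA as a dimer, either at a palindromic estrogen response element or through other factors, and most of its sites in breast cells are distal enhancers opened by pioneer factors such as FOXA1 and GATA3. Estradiol bound in its pocket exposes a coactivator surface. Y537S lies in the ligand-binding domain and is known for hormone-independent activity. K303R changes the hinge of the receptor. Several bound sites close together on a chromosome are a known form of enhancer, in which single elements can contribute unequally.

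Promoters inside clusters show which DNA the members can hold, and 4 of them are printed because each overlaps a member region and has 1 arm of the estrogen response element. The arm is GGTCA, or TGACC on the other strand. Each line gives the 250 bases before the transcription start of the gene, 5′ to 3′ on the coding strand, with the arm in capitals. The sequences are RefSeq's (GRCh38.p14).
JUND: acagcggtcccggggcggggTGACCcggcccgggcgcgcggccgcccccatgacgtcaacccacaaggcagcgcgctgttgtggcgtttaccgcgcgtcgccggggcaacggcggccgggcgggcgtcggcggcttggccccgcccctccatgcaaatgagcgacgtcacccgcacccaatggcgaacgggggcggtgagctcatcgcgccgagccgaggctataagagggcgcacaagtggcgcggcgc
SSH3: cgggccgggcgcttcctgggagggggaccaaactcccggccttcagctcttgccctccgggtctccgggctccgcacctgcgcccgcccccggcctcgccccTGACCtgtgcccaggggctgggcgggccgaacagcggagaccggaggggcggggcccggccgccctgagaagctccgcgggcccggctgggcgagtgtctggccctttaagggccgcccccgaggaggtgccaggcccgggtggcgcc
MAFF: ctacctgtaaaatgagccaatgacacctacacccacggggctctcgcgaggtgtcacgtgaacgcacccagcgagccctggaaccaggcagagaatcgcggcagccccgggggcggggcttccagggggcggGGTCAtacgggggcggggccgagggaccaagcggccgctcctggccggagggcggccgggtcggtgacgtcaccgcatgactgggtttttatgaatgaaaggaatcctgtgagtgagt
CA12: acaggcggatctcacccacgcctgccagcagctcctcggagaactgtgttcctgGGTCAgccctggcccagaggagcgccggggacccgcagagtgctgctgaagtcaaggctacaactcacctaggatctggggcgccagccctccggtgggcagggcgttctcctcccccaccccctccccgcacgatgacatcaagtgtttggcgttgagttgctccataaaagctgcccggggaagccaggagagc
JUND encodes an AP-1 subunit and its window lies at chr19:18281623-18281872 on the minus strand. SSH3 encodes a cofilin phosphatase, with its window at chr11:67303280-67303529 on the plus strand. MAFF encodes a small Maf factor, at chr22:38201744-38201993 on the plus strand. CA12 encodes carbonic anhydrase 12, a well-known estrogen target, at chr15:63381847-63382096 on the minus strand.

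At the JUND promoter the summit held 219, 192, 191, 192, 229 and 225 fragments in the 2 wild-type, the 2 Y537S and the 2 K303R libraries, each time without E2 before with E2, an order kept throughout. A summit fragment is a sequenced fragment that covers the summit of a peak, as recovered from the deposited fold and p-value. The 6 libraries were close together there, and this region was the strongest of the 7 in its cluster. The SSH3 promoter held 202, 197, 188, 211, 197 and 194, and ranked at 6 of the 17 regions of its cluster. The MAFF promoter held 171, 166, 188, 187, 137 and 143, and was the second strongest of 6. The CA12 promoter held 150, 139, 151, 179, 113 and 142 and ranked at 5 of 12. Before scaling for depth, both K303R libraries were the lowest at MAFF, and K303R without E2 was the lowest at CA12.

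Promoters were a small part of the clusters. Of 33558 RefSeq promoter windows, each 250 bases before to 50 after a start, 908 (2.71%) overlapped a member region, and these sat in 710 member regions (5.61% of members). The share was 6.40% for constant regions in groups of 2 to 4 and 9.33% for those that stood alone. In all, 552 clusters (29.1%) held a promoter region, and in 477 of those 552 the strongest region lay elsewhere. The median member with a promoter had 55.8 fragments, scaled for depth and averaged over the libraries, against 76.3 for members without one. The GGTCA arm on either strand was found in 46.5% of the windows in clusters, in 43.4% of those in other constant regions, in 35.7% of windows without a constant region and in 37.4% of all windows. The whole element, GGTCA followed by NNN and TGACC, was in none of the 908 windows and in 0.0596% of all. The AP-2 motif GCCNNNGGC was in 36.6% of windows in clusters against 23.3% of all, and the GC box GGGCGG in 64.9% against 45.0%. Windows in other constant regions held them in 34.3% and 68.7%, so the GC box was less frequent in clusters than there. The forkhead motif TGTTTAC was in 3.41% against 3.44%, and the AP-1 motif TGANTCA in 8.04% against 7.68%. These are letter matches on both strands, and some GC-rich motifs overlap each other.

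The typical cluster was short. Its median span was 31.0 kb, with quartiles of 23.9 and 39.8 kb and extremes of 5.92 and 131 kb, and all spans together came to 64.2 Mb. Member regions were 617 bp wide at the median, and covered 13.2% of the span of the median cluster. Neighbouring members lay 4950 bp apart at the median, with quartiles of 2027 and 7864 bp. By number of regions, 761 clusters held 5, 705 held 6 or 7, 231 held 8 or 9, 160 held 10 to 14 and 38 held 15 to 25. At the threshold, 1509 stitched groups had 4 regions and were left out. Those groups had a median of 299.5 summit fragments in all, as the mean of the libraries, against 411 in clusters of 5. A further 22643 constant regions stood alone and 30499 were in 12185 groups of 2 to 4. Spans were not filled by constant regions only, since 1504 clusters (79.4%) also held merged regions that were missing from at least 1 list, 3591 in total.

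**Figure D1:**
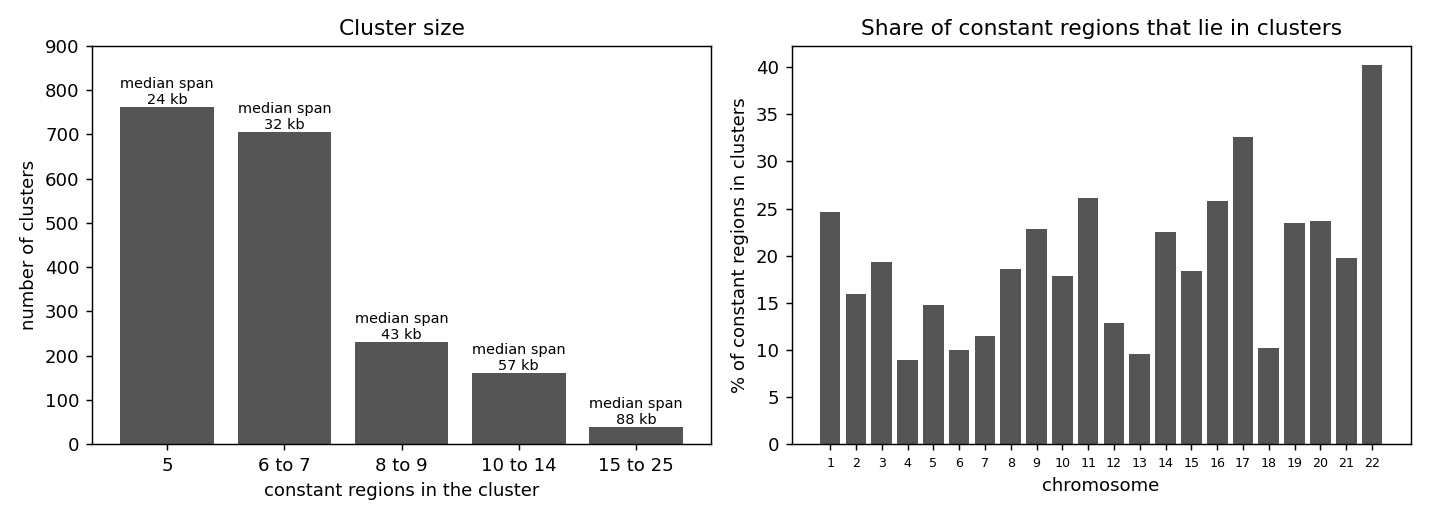
Number of clusters by number of constant regions, with the median span of each class above its bar (left), and percent of each chromosome's constant regions that lie in clusters (right). Clusters of 5 are the most common, at 761, and chromosome 22 has the highest share, at 40.2%.

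Clusters were not spread evenly over the chromosomes. On chromosome 22, 40.2% of constant regions were in clusters, followed by 32.6% on chromosome 17, 26.1% on chromosome 11 and 25.8% on chromosome 16. The lowest shares were 8.91% on chromosome 4, 9.60% on chromosome 13, 9.96% on chromosome 6 and 10.2% on chromosome 18. Gene density and copy number differ between these chromosomes, and their part in the shares was not tested.

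Most clusters overlapped a gene. Any overlap with the span of a cluster counted, and no other spans of like length were set beside these shares. A protein-coding gene overlapped 1469 clusters (77.5%), 492 clusters overlapped 2 or more and the fullest overlapped 13. The 426 remaining clusters were a median of 54.3 kb from the nearest protein-coding gene. Of the member regions 61.6% lay within a gene's span, against 53.9% in groups of 2 to 4 and 51.0% alone. The annotation used gives gene spans only, so exons and introns were not analysed here.

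Known estrogen targets were the list most often overlapped by a cluster. Of 43 estrogen receptor target genes, 18 (41.9%) overlapped one, against 2168 of all 19122 protein-coding genes (11.3%). They included GREB1, an estrogen-induced coregulator, RARA, a retinoic acid receptor, CCND1 (cyclin D1), CTSD (cathepsin D) and KRT19, a luminal keratin. Luminal genes followed with 10 of 31 (32.3%), among them GATA3, GRHL2, TFAP2A and TFAP2C, which encode lineage transcription factors, and CDH1, which encodes E-cadherin. The coregulators had 5 of 20, including CARM1, a coactivating arginine methyltransferase. AP-1 and immediate early genes had 4 of 18 (22.2%), namely DUSP1, JUNB, JUND and MAFF. Androgen receptor and apocrine genes had 6 of 28 (21.4%), with TMPRSS2, NDRG1 and PMEPA1 among them. WNT and Hippo genes had 4 of 22 (18.2%). The lists were chosen with earlier results of these data known. Overlaps of the lists with smaller groups or single constant regions were not set beside these shares.

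The lists of genes from other cell types and of general functions lay closer to the share of all genes. Neuronal genes had 3 of 18, hepatocyte genes 3 of 20 (AHSG, APOC3 and APOA1), cell cycle genes 3 of 22, housekeeping genes 2 of 19, basal and mesenchymal genes 2 of 20 (EGFR and MYLK) and immune genes 1 of 20 (CCR7). By gene length, clusters overlapped 545 of 5325 genes of up to 10 kb and 483 of 3210 genes over 100 kb. The median gene was 24.5 kb long over all genes, 32.2 kb among estrogen targets and 116 kb among coregulators. Overlap is by position only, and no expression was analysed here.

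Members had more signal than the other constant regions. In the order given above, the median member had 74, 77, 77, 88, 60 and 78 summit fragments, and the median constant region that stood alone had 42, 40, 36, 40, 28 and 31. The ratio of the 2 medians ran from 1.76 in wild type without E2 to 2.52 in K303R with E2. The local background that the peak caller estimated at each summit was also higher in clusters, by 3.18 to 4.21 times. The authors' fold enrichment, which divides by that background, was lower in clusters, at medians of 8.48 to 10.2 against 10.2 to 14.3. Whether the caller's background contains signal of neighbouring peaks was not tested. Clusters held 24.8%, 25.2%, 25.6%, 25.7%, 27.1% and 28.0% of the summit fragments of all constant regions, so the K303R pair was the highest.

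Larger clusters had stronger regions. Averaged over the libraries and regions of a cluster, the median was 82.2 fragments per region in clusters of 5, then 86.7, 96.4 and 99.5 in the classes up to 14, and 119 in clusters of 15 to 25. The highest summit of any peak was 403 to 441 fragments in the 6 libraries, and the median peak had 24 to 30. The highest summits were thus similar in every library. Whether a ceiling limits the ratios of the strongest regions, and what would set it, was not tested.

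Signal inside a cluster was unequal, in much the same way in each library. The strongest region held 31.5%, 31.2%, 30.5%, 30.1%, 32.0% and 31.3% of the summit fragments of the median cluster. It was 1.24 to 1.33 times the second strongest region and 6.56 to 6.70 times the weakest. In clusters of 5, where equal regions would each hold 20%, the ranked regions of the wild type without E2 held 35.7%, 24.8%, 18.0%, 12.4% and 7.71% at the median. The strongest held 35.6% to 36.9% in the other libraries. More than 50% of the fragments were in a single region in 84 to 103 clusters per library (4.43% to 5.44%). The strongest region was the first or last of its cluster in 27.8% to 30.1% of clusters, against 32.5% if every place were alike.

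**Figure D2:**
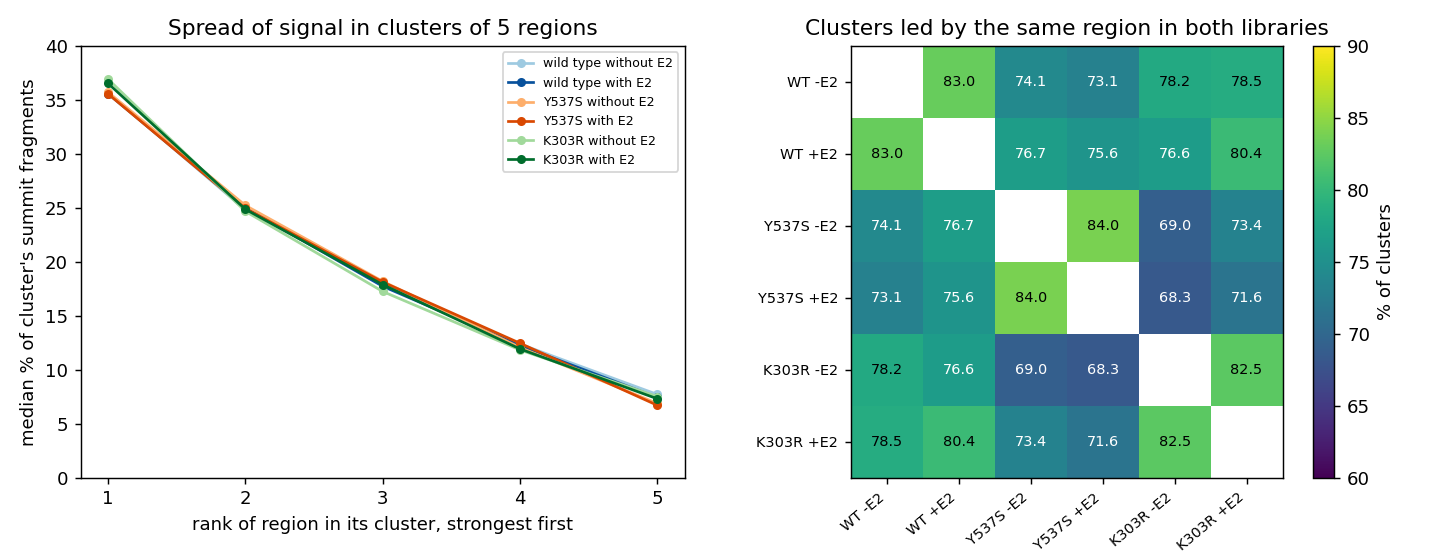
Median percent of a cluster's summit fragments held by each of its regions, ranked from the strongest, in the 761 clusters of 5 regions, 1 line per library (left), and percent of all clusters led by the same region in each pair of libraries (right). The 6 lines nearly coincide, and the pairs of the same receptor, at 82.5% to 84.0%, are above all other pairs, at 68.3% to 80.4%.

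With E2, the median share of the strongest region fell by 0.22 percentage points in wild type, by 0.34 in Y537S and by 0.75 in K303R. The mean change was -0.44 points, with p = 0.25 by an exact 2-sided sign-flip test over the 3 lines (n = 3), which is the smallest p that 3 lines allow. The share was lower with E2 in 982 clusters of wild type (51.8%), 1068 of Y537S (56.4%) and 1144 of K303R (60.4%). The fall did not hold in each line under other settings. With a stitching gap under 5 kb the median share in Y537S went from 29.69% to 29.71%, and with the Y537S lists left out that in wild type went from 32.23% to 32.26%. Measured by the authors' fold, the mean change was 0.0206 points (exact p = 0.75), so the direction also rests on the measure.

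The leading region was mostly the same in different libraries. One region was strongest in all 6 libraries in 998 clusters (52.7%), and there 1.53 times the second strongest as the mean of the libraries. In 724 clusters 2 different regions took the lead, in 149 clusters 3, in 22 clusters 4 and in 2 clusters 5. Where the lead changed, the top regions were close, with a median ratio of 1.13 in clusters with 2 leaders. Libraries of the same receptor shared the leader more often than other pairs. The share of clusters with the same leader without and with E2 was 83.0% for wild type, 84.0% for Y537S and 82.5% for K303R, and it averaged 74.6% (68.3% to 80.4%) over the other 12 pairs. In an exact permutation test over the 15 ways of pairing 6 libraries, p was 0.0667, the smallest that the design allows. The lowest share was between Y537S with E2 and K303R without E2.

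The cluster with the most regions lay on chromosome 22 at chr22:23070276-23192797. It held 25 regions over RSPH14, GNAZ, RAB36 and BCR, the last being the breakpoint gene of chronic myeloid leukaemia. Its regions summed to 2721, 3226, 2868, 3261, 2428 and 3193 fragments. Its lead alternated between region 20, with 314, 308, 262, 288, 293 and 334 fragments, and region 24, with 311, 321, 270, 279, 302 and 311, and neither was clearly above the other.

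ITPK1, which encodes an inositol phosphate kinase, and CHGA (chromogranin A) lay in the longest cluster, chr14:92930052-93060634, with 24 regions over 131 kb. Summed fragments were 4456, 4345, 4534, 5013, 3886 and 4701, the largest mean sum of the named clusters. Region 16 led in every library with 390, 384, 315, 317, 404 and 411 fragments, yet that was only 6.32% to 10.4% of the total, since 9 other regions passed 200 fragments in wild type without E2. In Y537S, region 5 at chr14:92951178-92951771 stood out with 90, 75, 185, 175, 58 and 74 fragments. Both Y537S libraries were above the other 4 there.

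RXRA, the retinoid X receptor that partners many nuclear receptors, lay in a cluster of 21 regions at chr9:134315615-134419206. Its region 4 led in all libraries with 338, 333, 260, 277, 269 and 321 fragments. Region 15 showed a different pattern, at 22, 35, 60, 92, 25 and 43, where both Y537S libraries were above the other 4. RAB37 and NHERF1, an estrogen-induced scaffold protein, shared a cluster of 15 regions at chr17:74686691-74771488, which held the strongest named regions. Region 14 there had 435, 423, 372, 369, 433 and 430 fragments and region 15 had 433, 416, 362, 372, 420 and 429, where region 14 equals the highest summit of any peak in both wild-type libraries.

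**Figure D3:**
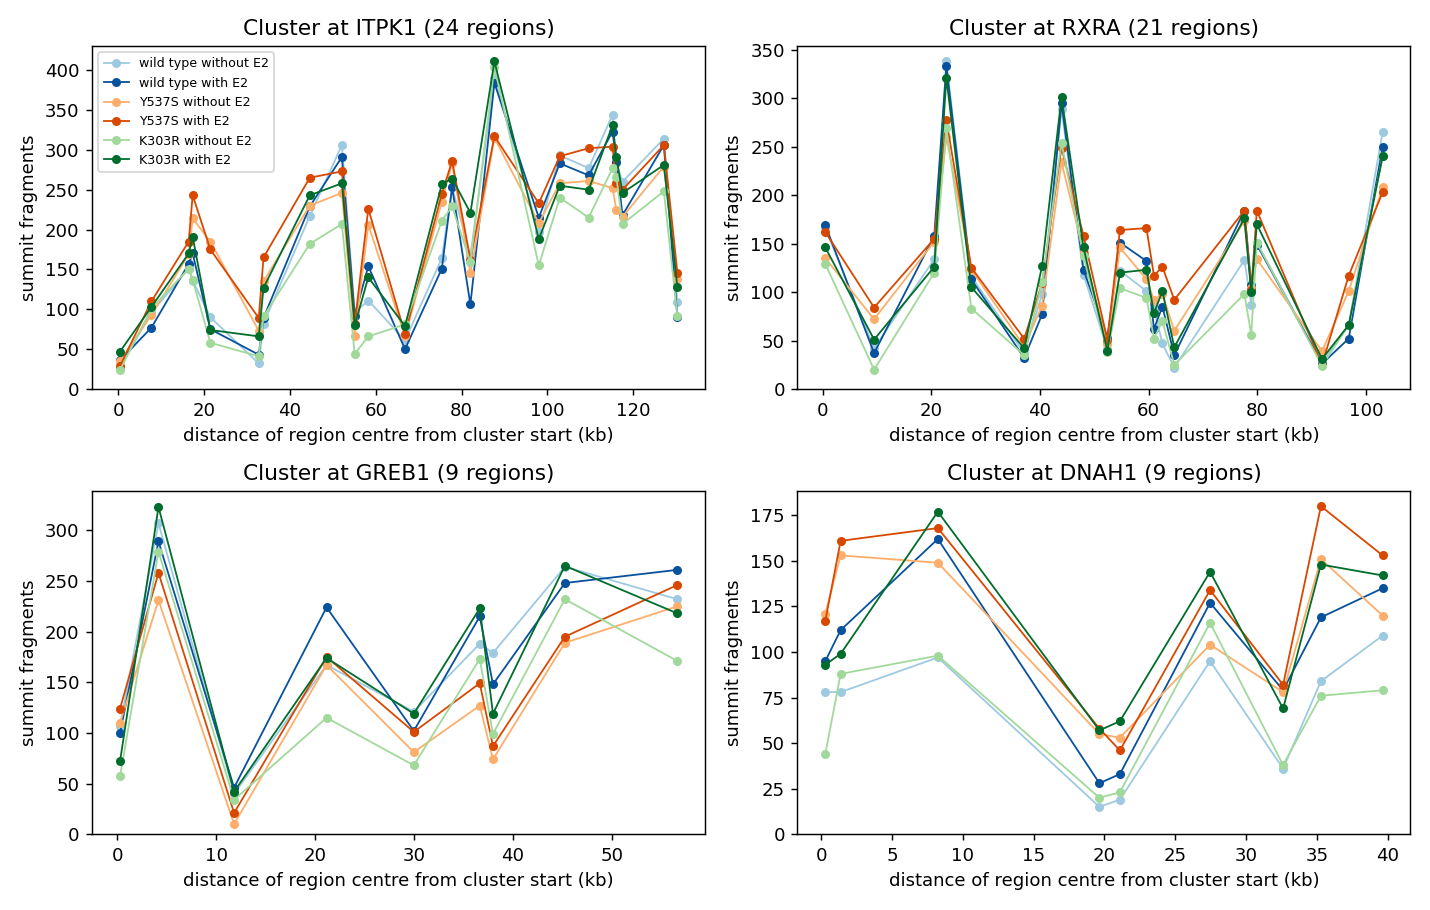
Summit fragments of each region along the clusters at ITPK1, RXRA, GREB1 and DNAH1, against distance from the cluster start in kb, 1 line per library. ITPK1 and GREB1 keep one leader in all 6 libraries, and DNAH1 has 5 different leaders.

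GREB1 is a well-known estrogen-induced gene of breast cancer cells. Its cluster held 9 regions at chr2:11494518-11551569, with sums of 1605, 1633, 1214, 1356, 1228 and 1555 fragments. Region 2 led in each library, with 307, 289, 231, 258, 279 and 323. Region 7 at chr2:11532256-11532765 had 179, 148, 74, 87, 99 and 119, lowest in both Y537S libraries. Region 3 had 40, 46, 10, 21, 34 and 42, again lowest in Y537S. Scaled to each library's median well-covered region, the Y537S sum was 0.756 of wild type without E2 (95% counting interval 0.70 to 0.82) and 0.757 with E2. By the lowest local background these ratios were 0.926 and 0.858, so their size rests on the scaling. The local background itself, relative to each library's lowest, was 0.781 and 0.873 of wild type, and its part was not tested. E2 gave ratios of 0.988 (wild type), 0.988 (Y537S) and 1.03 (K303R), or 1.07, 0.987 and 1.35 by the lowest local background.

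ERBB2, the HER2 receptor gene, lay with PGAP3, STARD3, PNMT and TCAP in a cluster of 8 regions at chr17:39662942-39712758. The leader, region 3, had 328, 305, 316, 336, 301 and 315 fragments and barely differed between libraries. Region 4 at chr17:39686883-39687696 had 118, 135, 31, 31, 166 and 166, so Y537S was far below and K303R above wild type in both treatments. Scaled to each library's median, the whole cluster was 1.53 times wild type in K303R without E2 (1.40 to 1.67) and 1.44 times with E2. At that scaling the median well-covered region of chromosome 17 was 1.11 and 1.13 times. By the lowest local background the cluster was 1.15 and 1.31 times wild type. The local background itself, relative to each library's lowest, was 1.37 and 1.59 times, and its part was not tested.

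The cluster at MYC, the proto-oncogene, held 13 regions at chr8:127726470-127801865. Region 12 led throughout with 290, 287, 210, 250, 297 and 351 fragments, 20.8% to 31.3% of the total. The 13 regions summed to 1007, 993, 1012, 1094, 949 and 1179 fragments. Scaled to each library's median, K303R was 1.27 times wild type without and 1.34 times with E2, and the median well-covered region of chromosome 8 was 1.14 and 1.13 times. By the lowest local background the MYC cluster was 0.955 and 1.22 times wild type, so the direction without E2 rests on the scaling. PMEPA1, an androgen-induced gene, had 8 regions at chr20:57676086-57711008. Its lead passed from region 5 (314, 302, 190, 199, 247 and 294 fragments) in wild type and K303R to region 7 (308, 294, 233, 256, 238 and 274) in Y537S. ELF3, an epithelial transcription factor gene, had 2 near-equal leaders among 8 regions at chr1:202008014-202035394, with 358, 333, 314, 346, 289 and 330 in region 3 and 353, 339, 318, 324, 336 and 354 in region 6.

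The most concentrated cluster was at FLYWCH2 on chromosome 16, where region 5, at a promoter, had 230, 266, 272, 265, 231 and 271 fragments and no other region passed 55. Clusters at GMFB and 16885 bp from WFIKKN2 followed, with 67.3% to 71.0% and 67.2% to 71.3% of fragments in 1 region. DNAH1, an axonemal dynein gene, had 5 different leaders among 9 regions at chr3:52345364-52385647, and its strongest region never held more than 19.9% of the fragments.

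Changes between libraries were counted over the 8549 members with a mean of at least 50 fragments (67.5% of members, against 36.1% of regions that stood alone). A region was called higher or lower when its scaled ratio passed 1.5-fold and the 99.9% counting interval of the ratio excluded 1. The call compares 2 libraries and covers counting error only. Wilson intervals on shares of members treat regions as independent and cover no variation between libraries.

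With ratios scaled to each library's median, E2 changed few members. In wild type 141 members (1.65%) were higher and 48 (0.561%) lower, against 1.4% and 0.777% of all well-covered constant regions. In Y537S 4 members (0.0468%) were higher and 0 lower (95% Wilson upper bound 0.0449%), against 0.0915% and 0.0823%. In K303R 237 (2.77%) were higher and 51 (0.597%) lower, against 2.12% and 1.01%. The members' shares were thus near the background in wild type, and in K303R lower calls were the more sparse in clusters. These counts rest on the scaling: by the lowest local background 3.38% of members were higher and 0.152% lower in wild type, and 18.0% were higher and 0 lower in K303R, against 2.70%, 0.235%, 14.1% and 0.0396% of all well-covered constant regions. At the first scaling no cluster had 3 or more members lower with E2, and 3 clusters in wild type and 9 in K303R had 3 or more higher. Nothing was set beside these counts of clusters.

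DUOX2, a hydrogen peroxide-producing oxidase gene, had the highest E2 ratio in wild type among clusters with 3 or more well-covered members. Its 6 regions at chr15:45088711-45108776 summed to 488, 836, 616, 755, 277 and 606. Both wild type and K303R were higher with E2, by 1.66 (1.49 to 1.86) and 1.78 times (1.54 to 2.06), and Y537S by 1.08 (0.97 to 1.21). Region 1 there went from 67 to 158 in wild type, from 127 to 152 in Y537S and from 29 to 82 in K303R. CAMTA1, a calcium-linked transcription factor gene, had the highest E2 ratio in K303R, with sums of 355, 471, 233, 291, 179 and 445 and a ratio of 2.02 (1.70 to 2.42). The lowest ratios were 0.659 at TENM4 in wild type, 0.790 at ABHD2 in Y537S and 0.625 in K303R in a cluster 473033 bp from LRRTM4. By the lowest local background they were 0.711, 0.789 and 0.820. The DUOX2 ratios were then 1.79 (wild type), 1.08 (Y537S) and 2.33 (K303R), and that at CAMTA1 was 2.65. The local background, relative to each library's lowest, moved the same way. Its ratio was 1.68, 1.10 and 2.11 at DUOX2, 2.19 at CAMTA1, and 0.769, 0.880 and 0.859 at the low clusters. Its part was not tested.

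The Y537S libraries differed from wild type at more members, in both directions. Without E2, 745 members (8.71%) were higher and 643 (7.52%) lower, against 7.81% and 9.43% of all well-covered constant regions. With E2 it was 585 (6.84%) and 595 (6.96%), against 6.21% and 8.35%. Direction here rests on the scaling. By the median ratio to the mean of the libraries, the members' shares were 10.5% and 5.84% without E2. All well-covered constant regions then had 9.40% and 7.68%. With E2 the members had 8.27% and 5.66%, against 7.44% and 7.07%. Scaled by the lowest local background, the members had 18.8% and 1.94% without E2, against 17.57% and 3.387%. With E2 they had 13.3% and 3.29%, against 12.02% and 4.436%. The shift with the scaling was thus shared by all well-covered constant regions. Most clusters with a call had fewer than 3 in that direction. Without E2, 482 of the 1552 clusters with 3 or more well-covered members had a higher member and 462 a lower one. There were 3 or more higher members in 58 clusters and 3 or more lower in 29. With E2, 404 clusters had a higher member and 430 a lower one, and 40 and 33 had 3 or more. How many clusters would hold such calls at the shares of all well-covered constant regions was not worked out.

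GDPD5, a glycerophosphodiesterase gene, marked a cluster that was higher in Y537S. Its 9 regions at chr11:75422215-75464940 summed to 510, 720, 1148, 1244, 491 and 888, and the ratio was 2.25 without E2 (2.03 to 2.50), with 7 of 8 well-covered members higher. In wild type and K303R the same cluster was higher with E2 by 1.37 and 1.47 times, and with E2 the Y537S ratio was 1.57. TMEM59L had the highest ratio without E2, at 3.44 (2.79 to 4.26), with sums of 117, 180, 402, 418, 129 and 265 and only 3 well-covered members. By the lowest local background its ratio was 4.21. The local background there, relative to each library's lowest, was 4.36 times wild type, and its part was not tested. The median well-covered region of chromosome 19 was 1.15 times wild type at the first scaling.

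SYT8, a synaptotagmin gene, marked a cluster that was lower. Its 6 regions at chr11:1817330-1834555 summed to 724, 773, 383, 401, 581 and 723, and with E2 all 6 were called lower in Y537S, at a ratio of 0.473 (0.42 to 0.53). A cluster 7061 bp from ZNF107, a zinc finger gene, had sums of 1062, 976, 509, 641, 675 and 865, and 9 of its 10 well-covered members were lower in Y537S without E2, at a ratio of 0.479 (0.43 to 0.53). The local background moved with these sums: relative to each library's lowest, its ratio was 2.85 at GDPD5 and 0.449 at ZNF107 without E2, and 0.519 at SYT8 with E2. Its part in the ratios was not tested.

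K303R showed the clearest difference between clusters and the rest. Without E2, 619 members (7.24%, 95% Wilson interval 6.71% to 7.81%) were higher and 191 (2.23%, 1.94% to 2.57%) lower than wild type, against 5.14% and 6.25% of all well-covered constant regions. The intervals cover no variation between libraries, so they do not test this difference. With E2, 834 (9.76%) were higher and 247 (2.89%) lower, against 6.37% and 7.87%. Lower calls were most frequent in regions that stood alone, at 10.1% without and 12.8% with E2. The members' level against wild type rests on the scaling, since by the lowest local background 0.912% were higher and 12.8% lower without E2. With E2 the shares were 5.35% and 4.69%. Under that scaling all constant regions had 0.652% and 22.5%, and 3.59% and 11.4%, so the members were again the more often higher and the less often lower.

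**Figure D4:**
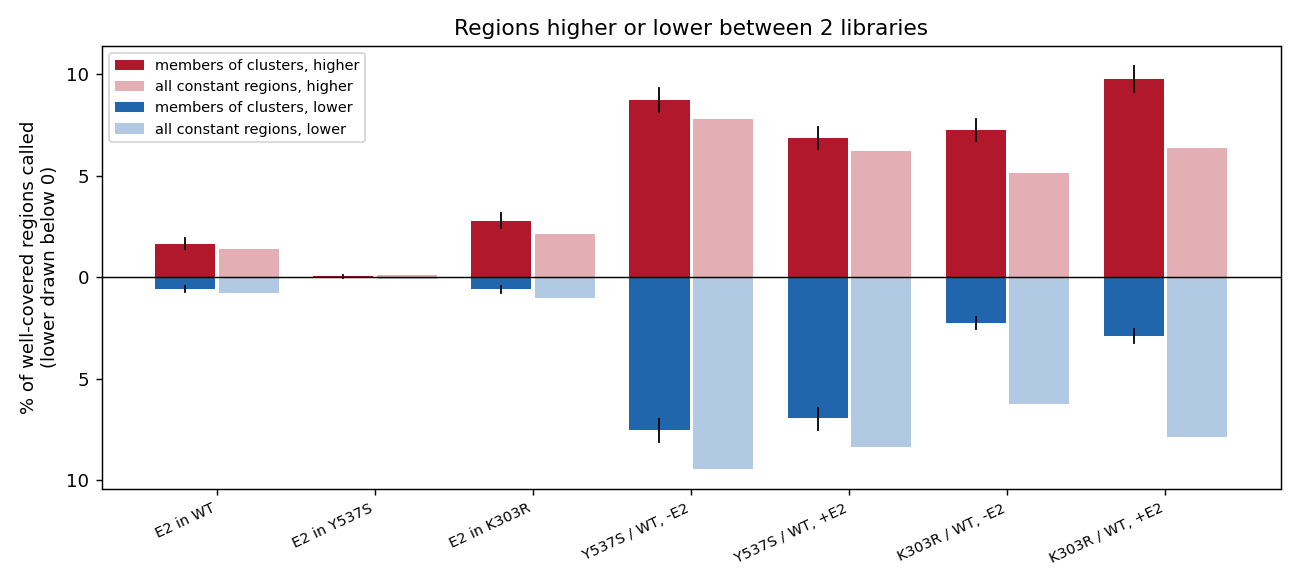
Percent of well-covered regions called higher (drawn above 0) or lower (drawn below 0) in each of the 7 comparisons, for members of clusters and for all constant regions, with 95% Wilson intervals on the members' bars. The intervals treat regions as independent and cover no variation between libraries. For K303R against wild type, members are called lower in 2.23% without E2 and 2.89% with E2, against 6.25% and 7.87% of all.

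The K303R ratio was higher in larger stitched groups. The median log2 ratio without E2 was -0.09, -0.04, 0.00, 0.06 for groups of 1, 2, 3 and 4 regions and 0.10, 0.14, 0.19 and 0.24 for clusters of 5, of 6 or 7, of 8 or 9 and of 10 to 25. With E2 the medians were -0.09, -0.02, 0.04, 0.08, 0.14, 0.17, 0.22 and 0.25. Every region here and in the counts above had a peak in both K303R lists, so a large group could not form where K303R had no peaks. Groups were also stitched from lists that leave K303R out, an alternative chosen after seeing the data. Regions with no K303R peak were ranked lowest, those with no wild-type peak highest, and those with neither were left out. From the 4 wild-type and Y537S lists, the median went from -0.15 for single regions to 0.20 for groups of 10 or more without E2, and from -0.15 to 0.21 with E2. From the 2 Y537S lists alone, which leave out both libraries of each ratio, it went from -0.15 to 0.20 and from -0.15 to 0.23. In these last groups of 10 or more, 6.26% of regions without E2 and 2.92% with E2 had no K303R peak, and 4.64% and 2.99% had no wild-type peak. Of the 4550 regions there, 151 without E2 and 62 with E2 had neither. Among constant regions, members were above other constant regions on 22 of 22 chromosomes in both treatments. With the local background taken off the summit fragments, the medians of members were 0.18 and 0.19, against -0.01 and -0.01 for the other constant regions. For Y537S the medians of members and others were -0.04 and -0.08 without E2, and -0.03 and -0.06 with E2.

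**Figure D5:**
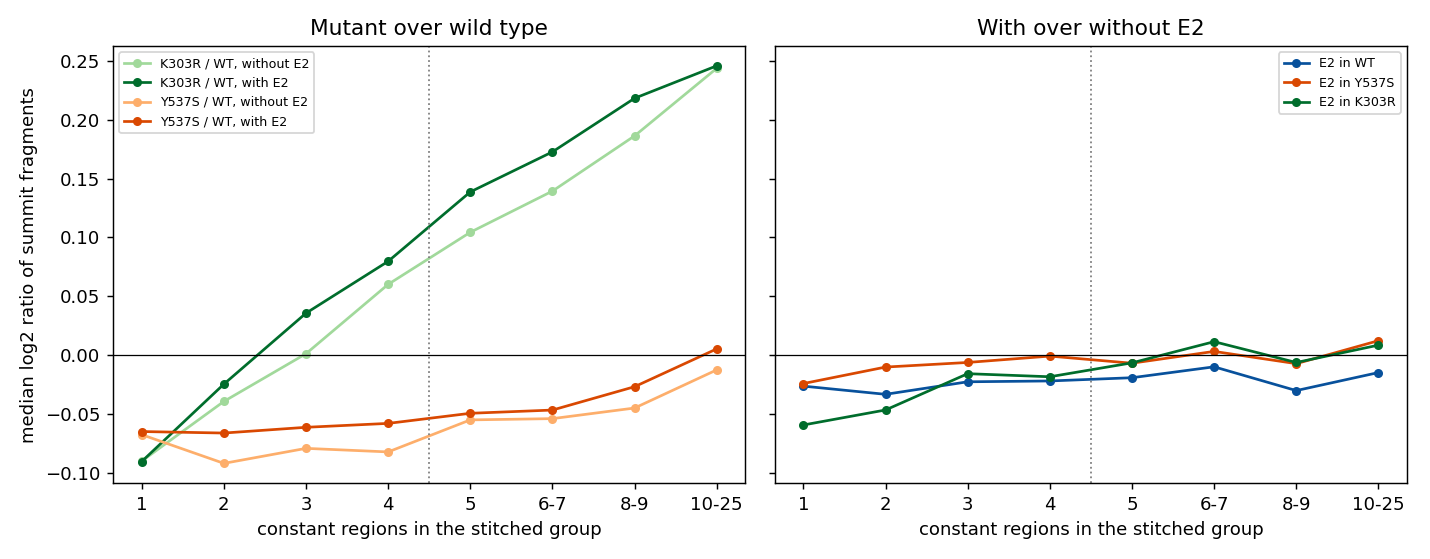
Median log2 ratio of summit fragments over well-covered constant regions, by number of regions in the stitched group, for the mutants over wild type (left) and with over without E2 (right); groups to the right of the dotted line are clusters. The lines of K303R over wild type go from -0.09 for single regions to 0.24 without E2 and 0.25 with E2 in clusters of 10 to 25, and the other lines stay within 0.1 of 0.

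The members are stronger than regions that stand alone, so the calls were also set out within 3 classes by mean fragments. From the weakest up, the classes held 2204, 2764 and 3604 members. They share the bounds of 75.5 and 122.5 fragments, so a region at a bound counts in both. In the weakest class, of 50 to 75.5 fragments, 7.03% of members and 4.20% of others were higher in K303R without E2, and 2.72% and 9.09% lower. In the middle class it was 8.32% and 4.83% higher and 3.51% and 9.40% lower. In the strongest, from 122.5 fragments up, it was 6.52% and 4.15% higher and 0.971% and 4.06% lower. With E2, 10.5%, 13.1% and 6.80% of members were higher from the weakest class up, against 5.54%, 5.63% and 4.24% of others. Lower calls were 4.04%, 4.20% and 1.17% against 12.3%, 11.5% and 4.42%. Members were thus more often higher and less often lower in each class, with and without E2. The same held in each class for Y537S against wild type. The class mean includes the compared libraries, and the part of strength was not tested.

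PWWP2B, a gene for a chromatin-binding protein, lay 20661 bp from the cluster with the highest K303R ratio with E2, at chr10:132438520-132480744. The 9 regions summed to 542, 598, 694, 890, 725 and 1093, and 7 of 8 well-covered members were higher with E2, at a ratio of 2.07 (1.87 to 2.29). Region 9 led in each library, with 132, 115, 123, 167, 165 and 196. The SLC45A4 cluster on chromosome 8, with 20 regions and sums of 926, 1099, 1292, 1472, 1305 and 1702, had the highest ratio without E2, 1.90 (1.75 to 2.07). Of its regions 11 were well covered. By the lowest local background the ratio was 1.43, and at the first scaling the median well-covered region of chromosome 8 was 1.14 times wild type. The local background there, relative to each library's lowest, was 1.55 times wild type, and its part was not tested.

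RGS6, a regulator of G-protein signalling, marked the cluster lowest in K303R in both treatments. Its 6 regions at chr14:72257519-72293054 summed to 421, 477, 496, 556, 152 and 198, and the ratio was 0.488 without E2 (0.40 to 0.59) and 0.470 with E2 (0.40 to 0.56). Both K303R sums were below the other 4. At GABRG3, a GABA receptor subunit gene, the 6 regions summed to 708, 788, 759, 818, 260 and 478, and 4 of 5 well-covered members were lower without E2, at 0.496 (0.43 to 0.57). As before, the local background moved with the sums, at 0.519 for RGS6 and 0.363 for GABRG3 without E2, and 2.17 for PWWP2B with E2, and its part was not tested.

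Neighbours within a cluster moved together to a limited degree. Over 5632 pairs of adjacent well-covered members, the correlation of their log2 ratios was 0.24, 0.03 and 0.30 for the E2 ratios of wild type, Y537S and K303R. For Y537S against wild type it was 0.39 in cells without E2 and 0.38 in cells with E2, and for K303R 0.37 and 0.39. Adjacent regions from the stitching gap to 50 kb apart (4884 pairs) had 0.15, -0.01, 0.22, 0.28, 0.28, 0.33 and 0.34. At 50 to 200 kb apart (1757 pairs) the values were 0.06, 0.01, 0.14, 0.26, 0.23, 0.25 and 0.26. At 200 kb or more (251 pairs) they were 0.06, -0.05, 0.05, 0.27, 0.25, 0.15 and 0.21. Ratios of both mutants to wild type were thus also correlated between regions too far apart to share a cluster. Pairs within groups of 2 to 4 (6331 pairs) had 0.23, 0.01, 0.30, 0.44, 0.44, 0.47 and 0.49, so for both mutants against wild type the values were lower in clusters than in these smaller groups. Within clusters the correlation was highest for neighbours under 2 kb apart, at 0.49 and 0.48 for Y537S and 0.44 and 0.47 for K303R against wild type. Both regions of a pair share their libraries and their depth, and pairs share regions, so these values are descriptions. Clusters with calls in both directions existed too. Of 1552 clusters, 54 had them for Y537S without E2 and 12 for K303R without E2.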

How the data were processed

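ChIP-seq peaks of 6 libraries were analysed, 1 per group, grouped by sample title. Bowtie2, SAMtools, Picard, bedtools, MACS2 and the build hg38 appear in the submitters' processing notes, without versions or roles. Neither the control, nor the threshold for peaks, nor read totals are given in the sources used here, so depth is known only from summit fragments. The deposited lists hold the authors' fold enrichment (a ratio to local background), −log10 p and q, and a score that was not used.

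Summit fragments n and local background were recovered per peak as the pair that gives both the fold and the Poisson p, and the recovered p matched the deposited −log10 p within 0.01% in 100% of peaks. A region's value is that of its strongest peak. Ratios were scaled to each library's median over the 32800 constant regions whose mean reached 50 fragments. Calls needed 1.5-fold and an exact 99.9% binomial counting interval. Recovery and calls were tested on simulated data. Python 3.11.15, numpy 2.4.6, scipy 1.17.1, pandas 2.3.3 and matplotlib 3.10.9 were used.

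The members, gene lists and rules were chosen with earlier results of these data known. Named clusters are those with most regions or fragments, those at list genes with most fragments, and those with extreme ratios, shares or leaders. Promoters came from RefSeq by symbol. The alternatives tried were other gaps, cluster sizes, peak thresholds, overlaps, list numbers, filters, scalings and the authors' fold in place of fragments.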

Additional observations from a re-analysis of the deposited data

Results flagged for a closer look

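The cluster at PRR5, a gene for a subunit of a kinase complex, moved in opposite directions with E2 in different lines. Its 7 regions at chr22:44670954-44719817 summed to 280, 343, 368, 332, 254 and 403 fragments, in the order wild type, Y537S and K303R, each without and with E2. The E2 ratio was 1.19 in wild type (95% counting interval 1.01 to 1.40) and 1.29 in K303R (1.10 to 1.52), and 0.798 in Y537S (0.69 to 0.93). With 1 library per group the difference was not tested, and the cluster was picked as an extreme of the Y537S ratios. The local background relative to each library's lowest moved the same way, at 1.28, 1.58 and 0.904, and its part was not tested.

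The X chromosome lies outside the 22 chromosomes described. The same rule gave 22 clusters there, with 134 of 1934 constant regions (6.93%), up to 18 regions in a cluster and a median span of 27.2 kb. No control library was analysed here to set these beside.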

How the results depend on the processing

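A result counted as moved when a share of called members left the 95% Wilson interval of the reported one, or a number of clusters or members changed by over 1.5 times; mutants are against wild type. Stricter peaks (−log10 q of at least 5) and merging at 100 bp or more moved none of the 18 results. Without the Y537S lists, an alternative chosen after seeing the data, none of 11 moved. The shares below are of members. Other gaps and cluster sizes left the shares of all well-covered constant regions as reported above. With a gap under 5 kb, there were 228 clusters with 1249 member regions. The shares called higher were 0% (E2 in Y537S), 7.58% (Y537S without E2) and 5.61% (Y537S with E2). The shares called lower were 0.0935% (E2 in K303R), 5.33% (Y537S without E2), 8.04% (Y537S with E2), 1.5% (K303R without E2) and 1.31% (K303R with E2). With a gap under 25 kb, there were 3468 clusters with 29266 member regions. Higher calls were then 6.47% (K303R without E2) and 8.43% (K303R with E2). Lower calls were then 0.761% (E2 in wild type), 8.32% (Y537S without E2), 3.43% (K303R without E2) and 4.22% (K303R with E2). For clusters of 8 or more, there were 429 clusters with 4373 member regions. The shares called higher were 2.06% (E2 in wild type), 10.2% (Y537S without E2), 8.28% (Y537S with E2), 8.91% (K303R without E2) and 11.4% (K303R with E2). The shares called lower were 6.82% (Y537S without E2), 6.37% (Y537S with E2), 1.33% (K303R without E2) and 1.59% (K303R with E2). With regions in at least 5 lists, there were 19521 member regions. Higher calls were then 1.99% (E2 in wild type), 0.368% (E2 in Y537S), 3.62% (E2 in K303R) and 7.83% (K303R without E2). Lower calls were then 0.746% (E2 in wild type), 0.198% (E2 in Y537S), 0.809% (E2 in K303R), 3.39% (K303R without E2) and 3.45% (K303R with E2). Over all well-covered regions, in the same order, 1.66%, 0.202%, 2.57% and 5.63% were higher. There 0.725%, 0.16%, 1.115%, 6.335% and 7.91% were lower. Scaled by the lowest local background, higher calls came to 3.38% (E2 in wild type), 18.0% (E2 in K303R), 18.8% (Y537S without E2), 13.3% (Y537S with E2), 0.912% (K303R without E2) and 5.35% (K303R with E2). The shares called lower were 0.152% (E2 in wild type), 0% (E2 in K303R), 1.94% (Y537S without E2), 3.29% (Y537S with E2), 12.8% (K303R without E2) and 4.69% (K303R with E2). The shares of all well-covered constant regions at this scaling are given above, beside those of the members. With a mean of at least 25 fragments, higher calls came to 2.08% (E2 in wild type), 9.48% (Y537S without E2) and 8.98% (K303R without E2). Lower calls were then 5.83% (Y537S without E2) and 1.57% (K303R without E2). Over all well-covered regions, in the same order, 1.54%, 7.97% and 5.92% were higher, and 8.17% and 4.36% lower. Without the K303R lists, higher calls came to 9.41% (Y537S without E2). The shares called lower were 6.76% (Y537S without E2). Over all well-covered regions 8.68% were higher and 8.37% lower. Scaled by the median ratio to the mean of the libraries, higher calls came to 2.00% (E2 in wild type), 10.5% (Y537S without E2), 8.27% (Y537S with E2) and 8.49% (K303R with E2). Lower calls were then 5.84% (Y537S without E2) and 5.66% (Y537S with E2). Over all well-covered regions, in the same order, 1.63%, 9.40%, 7.44% and 5.48% were higher, and 7.68% and 7.07% lower. The scaling by the median ratio and the exclusion of the K303R lists were also chosen after seeing the data. Measured by the authors' fold, the mean change with E2 of the strongest region's share turned from -0.44 to 0.0206 points (p = 0.75 by the exact sign-flip test), and the cause was not tested.

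In K303R against wild type, members were more often higher and less often lower than all well-covered constant regions under each of the 11 settings that gave these shares, the reported one included, and at both treatments. No paired analysis by replicate number was possible because each group has 1 library, and no library was left out within a group for the same reason. Pairing by receptor line was used for the strongest region's share and for shared leaders. With 3 lines the sign-flip test has a smallest p of 0.25, and the pairing test one of 0.0667. Depth limited the calls to the 67.5% of members that reached a mean of 50 fragments.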
